A study of Astyanax mexicanus with 6 samples.

Results

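Translesion synthesis and RAD6 ubiquitin genes were examined in cultured fibroblasts of the Mexican tetra *Astyanax mexicanus*. The genes were taken by name from the deposited expression table and are *polh*, *rev1*, *rev3l*, *rad18*, *ube2a*, *ube2al*, *ube2b* and *rnf8*. Each of the 8 names matched 1 of the 27420 genes listed, and all 8 had enough reads to be among the 16670 genes tested. RNA was sequenced from SEF, an embryonic fibroblast line of surface fish, and PEF, an embryonic fibroblast line of Pachón cavefish, with 3 libraries of each. Both lines carry the label WT, were grown at the same temperature in the same way, and have no treatment recorded. The study grew each line from several embryos, isolated clones and kept them for many passages, and the libraries came from cells of similar passage number. The study calls them independent biological replicates without saying what was independent. All libraries of a population came from 1 line, so the p-values here measure the spread between libraries of that line. A difference between PEF and SEF as populations cannot be told apart from a difference between these lines.

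Translesion synthesis lets DNA replication pass a damaged base that stops the replicative polymerases. In yeast and mammals, a stalled fork leads the ubiquitin-conjugating enzyme RAD6 and the ubiquitin ligase RAD18 to attach ubiquitin to the sliding clamp PCNA, and the marked clamp recruits the translesion polymerases. DNA polymerase eta, the product of *polh*, inserts bases opposite cyclobutane pyrimidine dimers, the main lesion left by UV light. REV1 binds the other translesion polymerases, and polymerase zeta, whose catalytic subunit is the product of *rev3l*, extends the strand past the lesion. RAD6 also works with other ligases on histone H2B and on protein turnover, and the ligase RNF8 builds ubiquitin chains on histones next to DNA breaks.

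Reads counted on genes numbered between 33381563 and 42506026 per library. Fibroblast markers were expressed in both lines, with the summed level of 6 genes (*col1a1a*, *col1a1b*, *col1a2*, *col5a1*, *pdgfra* and *vim*) between 6352 and 10375 TPM in SEF and between 8097 and 13832 TPM in PEF. TPM is a gene's level relative to all transcripts of a library, corrected for gene length. *vim*, which encodes the fibroblast protein vimentin, was the lowest of them, at 3.32 ± 0.718 TPM in SEF and 1.23 ± 0.372 TPM in PEF (SD, n = 3 each). These are RNA levels, while the study stained both lines for the vimentin protein and reported it as stably expressed in each. Markers of other cell types differed between the lines. The 6 epithelial names found summed to between 1692 and 2439 TPM in SEF and between 3963 and 4915 TPM in PEF, nearly all from *krt4* and *krt8*, while *epcam* had at most 3 reads in a library. The higher PEF sum came from *krt8* (ENSAMXG00000036187), with means of 1270 TPM in SEF and 3636 TPM in PEF. The lines overlapped for *krt4*, at means of 915 and 778 TPM. *cldn7b* (0.33 and 0.023 TPM) and *tp63* (0.81 and 0.097 TPM) were lower in PEF. The 5 muscle names found summed to between 18.0 and 20.4 TPM in SEF and between 0.22 and 1.03 TPM in PEF, and the 5 endothelial markers to between 98.8 and 140.9 TPM in SEF and between 38.8 and 42.7 TPM in PEF, with *cdh5* at 0 reads in every library. The muscle sum in SEF came nearly all from *ckma*, at a mean of 18.3 TPM in SEF and 0 TPM in PEF. The endothelial sums came nearly all from *kdrl* (means of 79.95 TPM in SEF and 15.6 TPM in PEF) and *fli1a* (37.8 and 24.8 TPM). The means of *pecam1* and *tie1* were at most 0.24 TPM in either line. The 6 neural markers summed to between 9.16 and 26.2 TPM in SEF and between 5.34 and 5.46 TPM in PEF. This difference came mostly from *gfap*, with means of 16.1 TPM in SEF and 0.787 TPM in PEF. *snap25a* went the other way, with means of 2.32 TPM in SEF and 4.34 TPM in PEF, and *sox2* had 0 reads in every library. The 5 pigment markers summed to between 1.46 and 2.72 TPM in SEF and between 5.68 and 13.6 TPM in PEF. The higher PEF sum came from *tyr* (ENSAMXG00000008748), with means of 1.18 TPM in SEF and 8.28 TPM in PEF. The other pigment markers had too few reads to be tested. The means of *mitfa* (0.543 TPM in SEF and 0.02 TPM in PEF), *dct* and *tyrp1b* were lower in PEF, and that of *pmela* was slightly higher. The 4 blood markers found summed to between 0.54 and 0.85 TPM in SEF and between 0.16 and 0.38 TPM in PEF, with *gata1a* at 0 reads in every library. The part of these markers in the results below was not tested.

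Of the 8 genes, *rev3l* was higher in PEF, *ube2b* was lower in PEF, and the other 6 did not pass the test. Calls rest on edgeR's quasi-likelihood test on the read counts, with Benjamini-Hochberg adjustment over all genes tested and an adjusted p under 0.05. Among all 16670 genes tested 63.5% were called, so that the share of 25% among these 8 genes lay below the share in the whole table. By direction, 30.4% of all genes were called higher and 33.1% lower in PEF, against 1 of the 8 genes in each direction. The median log2 fold change of the 8 genes, PEF over SEF, was 0.03, and that of all genes tested was −0.02. Without SEF replicate 3, 4 of the 8 genes were called, since *rnf8* and *ube2al* then also passed the threshold. In bulk RNA, fewer cells expressing a gene and less of its RNA per cell cannot be told apart.

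**Figure D1:**
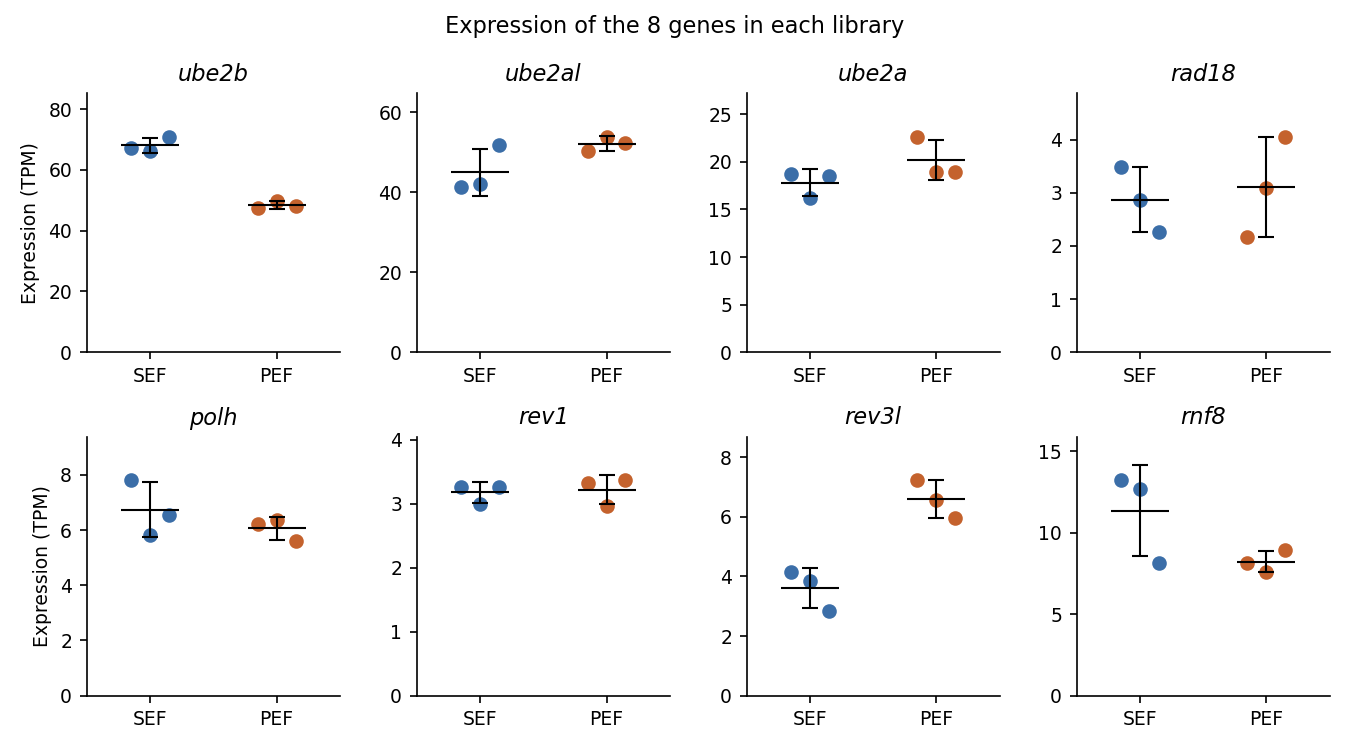
Expression in TPM of the 8 genes in the 3 SEF libraries (blue) and the 3 PEF libraries (orange), 1 panel per gene with its own vertical axis from 0. Points are libraries in the order of their replicate numbers, the horizontal bar is the mean and the whiskers are the SD, and the lines do not overlap for *ube2b*, *ube2a* and *rev3l*.

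The transcripts of the RAD6 enzymes were the most abundant of the group in both lines, and those of *rev1* and *rad18* were among the least abundant. In SEF, the mean level fell from 68.2 TPM for *ube2b* to 45.1 TPM for *ube2al*, 17.8 TPM for *ube2a*, 11.4 TPM for *rnf8* and 6.73 TPM for *polh*. The SEF values of *rev3l*, *rev1* and *rad18*, with means of 3.61, 3.18 and 2.87 TPM, overlapped, and their order is not settled. In PEF, *ube2al* came first at a mean of 52.2 TPM, followed by *ube2b* at 48.5 TPM, *ube2a* at 20.2 TPM and *rnf8* at 8.23 TPM. *rev3l* at 6.58 TPM and *polh* at 6.06 TPM overlapped in PEF, as did *rev1* at 3.22 TPM and *rad18* at 3.11 TPM. The first and second places were exchanged between the lines, with *ube2b* above *ube2al* in 3 of 3 SEF libraries and below it in 3 of 3 PEF libraries. Among all listed genes, the 8 genes lay between the 57.7th percentile, that of *rad18* in SEF, and the 93.7th, that of *ube2b* in SEF.

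Among the polymerase genes, the catalytic subunit of polymerase zeta differed between the lines, while *polh* and *rev1* did not pass the test. *rev3l* (ENSAMXG00000014096) was expressed at 4.14, 3.83 and 2.85 TPM in SEF replicates 1, 2 and 3 and at 7.23, 6.56 and 5.96 TPM in PEF replicates 1, 2 and 3. The lowest PEF library lay above the highest SEF library, and reads numbered 645 to 885 in SEF and 1387 to 1619 in PEF. The log2 fold change was 0.94 (standard error, SE, 0.15, 95% interval 0.60 to 1.29, edgeR adjusted p = 0.00113). In the fits that lacked 1 library, it stayed between 0.79 and 1.04 and was called each time. Among the genes called in the whole table, 33.7% had a smaller difference in either direction, and the median size of the difference was 1.39 on the log2 scale.

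*polh* (ENSAMXG00000003778), the gene of polymerase eta, had 7.81, 5.83 and 6.56 TPM in SEF and 6.21, 6.38 and 5.59 TPM in PEF. The lines overlapped, with the highest and the second highest value both in SEF. Its log2 fold change was −0.09 (SE 0.17, edgeR adjusted p = 0.667), with a 95% interval from −0.50 to 0.32 on 200 to 263 reads. The sign of this value depended on SEF replicate 1, without which it was 0.038.

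*rev1* (ENSAMXG00000005365), which encodes the protein that the other translesion polymerases bind, had nearly the same mean level in both lines. It was expressed at 3.27, 2.99 and 3.27 TPM in SEF and at 3.33, 2.96 and 3.37 TPM in PEF, so that the lowest and the highest library were both PEF libraries. The log2 fold change was 0.10 (SE 0.11, 95% interval −0.16 to 0.37, edgeR adjusted p = 0.450). Relative to *rev1* in the same library, *rev3l* amounted to 1.14 ± 0.232 (SD, n = 3) in SEF and 2.05 ± 0.246 (SD, n = 3) in PEF on the TPM scale. The ratio ranged from 0.872 to 1.28 in SEF and from 1.77 to 2.22 in PEF. Relative to *polh*, *rev3l* amounted to 0.540 ± 0.112 (SD, n = 3) in SEF and 1.09 ± 0.0702 (SD, n = 3) in PEF. *polh* exceeded *rev3l* in every SEF library, and *rev3l* exceeded *polh* in every PEF library.

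Among the RAD6 enzymes, the *ube2b* transcript was lower in PEF, and the transcripts of *ube2a* and *ube2al* had slightly higher means that did not pass the test. In mammals UBE2A and UBE2B are the 2 forms of RAD6. The name of *ube2al* marks it as a relative of *ube2a*. *ube2b* (ENSAMXG00000015642) was expressed at 67.2, 66.4 and 71.0 TPM in SEF and at 47.5, 49.9 and 48.0 TPM in PEF. The lines were separated by more than the spread within either of them, with coefficients of variation of 3.60% in SEF and 2.63% in PEF. Its log2 fold change was −0.37 (SE 0.09, 95% interval −0.59 to −0.16, edgeR adjusted p = 0.00985), or 1.30-fold lower in PEF. The difference is small beside those of other genes, since 4.02% of the genes called in the whole table had a smaller one. It was called in each fit that lacked 1 library, between −0.43 and −0.33.

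*ube2a* (ENSAMXG00000000133) had 18.8, 16.2 and 18.5 TPM in SEF and 22.7, 19.0 and 19.0 TPM in PEF. The PEF libraries lay above the SEF libraries without overlap, but the gap between the nearest values was small. Its log2 fold change was 0.28 (SE 0.13, edgeR adjusted p = 0.101), with an interval from −0.03 to 0.59. With *rev3l* and *ube2b*, it made up the 3 of the 8 genes whose lines did not overlap, in TPM and in CPM (reads scaled to a common depth with edgeR's TMM factors). Among all genes tested, the lines did not overlap for 69.5% in TPM and 70.8% in CPM.

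*ube2al* (ENSAMXG00000033633) was expressed at 41.2, 42.1 and 51.8 TPM in SEF and at 50.3, 53.9 and 52.3 TPM in PEF. SEF replicate 3 reached the PEF range, while the other SEF libraries lay below it. The log2 fold change was 0.27 (SE 0.14, 95% interval −0.06 to 0.59, edgeR adjusted p = 0.128). Without SEF replicate 3 it was 0.38 and passed the threshold (edgeR adjusted p = 0.0306).

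These enzymes are closely related, and the authors' counting could have divided reads among their genes. Such a division leaves a sum of reads unchanged but can move a sum in TPM, since the genes differ in reads per TPM. Reads matching more than 1 of these genes could instead have been left uncounted. A sum of reads would not restore them, and their part here was not tested. The summed level of *ube2a*, *ube2al* and *ube2b* was 131.1 ± 8.97 TPM (SD, n = 3) in SEF and 120.9 ± 1.76 TPM (SD, n = 3) in PEF. The highest PEF total of 122.8 TPM lay below the lowest SEF total of 124.7 TPM, and the ratio of the means, PEF over SEF, was 0.922. In CPM, the totals overlapped, at 52.7 ± 4.39 CPM in SEF and 49.3 ± 1.68 CPM in PEF (SD, n = 3 each). The makeup of the family differed more than its total. *ube2b* made up 50.2% to 53.2% of the family in SEF and 39.4% to 40.7% in PEF. *ube2al* made up 32.4% to 36.7% in SEF and 41.8% to 43.9% in PEF, and *ube2a* 13.0% to 14.8% in SEF and 15.4% to 18.8% in PEF. For each *ube2al* transcript there were 1.53 ± 0.137 transcripts of *ube2b* in SEF and 0.929 ± 0.0134 in PEF (SD, n = 3 each). These shares were described and not tested.

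**Figure D2:**
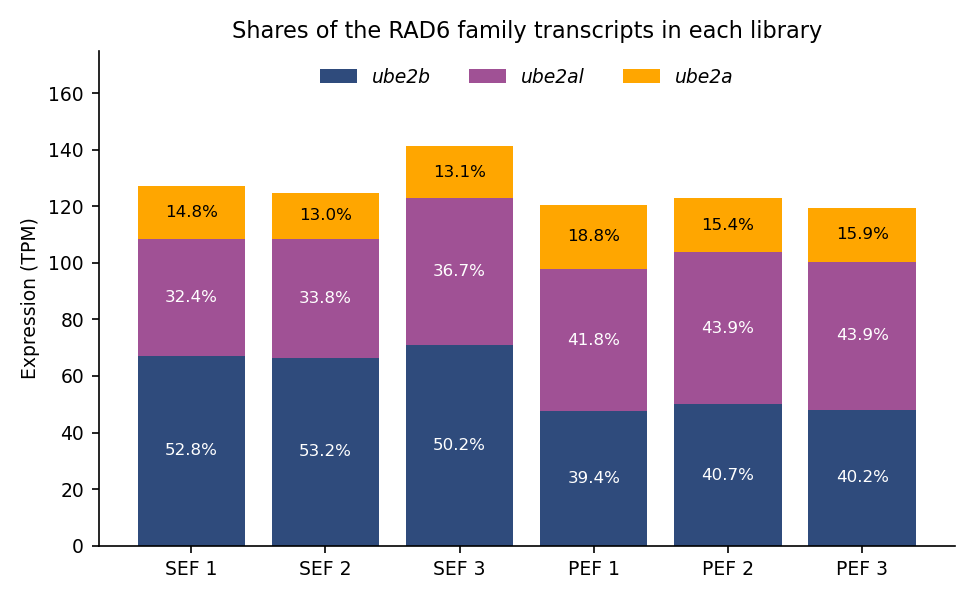
Stacked levels in TPM of *ube2b*, *ube2al* and *ube2a* in each library, with each gene's share of the family total printed in its segment. The *ube2b* segment holds at least 50.2% of the total in SEF and at most 40.7% in PEF, while the totals lie between 119.4 and 141.3 TPM.

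Among the ubiquitin ligases, neither *rad18* nor *rnf8* passed the test, and each varied widely in at least 1 line. *rad18* (ENSAMXG00000002534), the ligase that directs RAD6 to PCNA, had 3.48, 2.87 and 2.26 TPM in SEF and 2.17, 3.09 and 4.06 TPM in PEF. Its lowest and highest values were both in PEF, and it had the lowest counts of the group, 81 to 180 reads per library. The log2 fold change was −0.05 with a 95% interval from −0.77 to 0.66 (SE 0.30, edgeR adjusted p = 0.891), the widest of the 8 genes. At this depth and spread, a difference anywhere within this interval was not excluded. The value was 0.21 without PEF replicate 1 and 0.10 without SEF replicate 1. PEF replicate 1 was also the library with the lowest summed level of replicative polymerase genes, 56.0 TPM against 78.2 and 106.9 TPM in PEF replicates 2 and 3, and the part of this in the value of *rad18* was not tested. The summed RAD6 family exceeded *rad18* by a factor of 29.4 to 62.5 over the 6 libraries, and the lines overlapped.

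*rnf8* (ENSAMXG00000024530), the ligase of break signaling, was expressed at 13.2, 12.7 and 8.14 TPM in SEF and at 8.14, 7.62 and 8.94 TPM in PEF. SEF replicates 1 and 2 stood above all PEF libraries, while SEF replicate 3 equalled PEF replicate 1. The log2 fold change was −0.37 (SE 0.18, 95% interval −0.81 to 0.06, edgeR adjusted p = 0.111). Without SEF replicate 3 it was −0.56 and passed the threshold (edgeR adjusted p = 0.00951). *rnf8* and *ube2b* had nearly the same log2 fold change, but the SE of *rnf8* was 0.18 and that of *ube2b* 0.09.

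**Figure D3:**
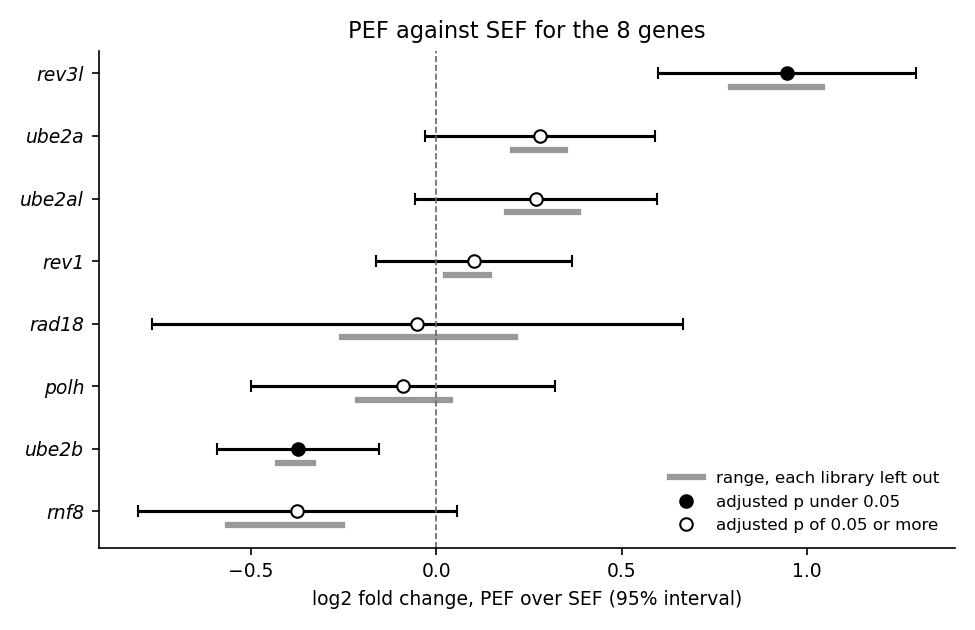
Log2 fold changes of the 8 genes, PEF over SEF, with 95% intervals from edgeR, filled where the adjusted p was under 0.05. Gray bars give the range over the fits that lack 1 library, and the intervals of *rev3l* and *ube2b* lie wholly on 1 side of 0.

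The genes most like each member across the 6 libraries were found by Pearson's r of log2 CPM among 12004 other genes with a name and a mean of at least 1 CPM. The libraries fall into 2 lines, so a high r for a called gene describes mostly the difference between lines. For every member, the r given is the highest of 12004 over 6 libraries, a search that by itself favors values near 1. The gene most like *rev3l* was *LRRC9* (r = 0.999) and that most like *ube2b* was *wdr45b* (r = 0.999). For *rnf8* it was *anapc1* (r = 0.998), for *rad18* *krcp* (r = 0.998), for *ube2a* *abt1* (r = 0.999), for *ube2al* *arg2* (r = 0.994), for *rev1* *dimt1l* (r = 0.989) and for *polh* *ctnnb2* (r = 0.960). Among the members, *rnf8* and *ube2a* ran opposite to each other, with r = −0.904 over the 6 libraries and −0.880 after the mean of each line was removed. This pair was not chosen in advance, and other pairs reached lower values on 1 of these measures. *rev3l* and *ube2b* had r = −0.967 over the 6 libraries and −0.660 after the removal, and *rev3l* and *ube2al* had 0.474 and −0.889. Each of these is a description over 6 libraries, in which the genes compared share the same libraries and their depths.

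The other translesion polymerases and their partners showed 1 call that held in every fit. Of 8 genes tested, 1 was higher and 2 were lower in PEF, a share of 37.5% against 63.5% of all genes tested. *poli*, which encodes polymerase iota, a relative of polymerase eta, was expressed at 4.86, 4.26 and 3.05 TPM in SEF and 9.0, 7.5 and 7.69 TPM in PEF. The lines did not overlap, and its log2 fold change of 1.08 (SE 0.17, edgeR adjusted p = 0.00118) was close to the 0.94 of *rev3l*. *mad2l2*, the gene of the REV7 subunit that binds REV3L in polymerase zeta, is listed at 3 genes, between which reads could have been divided. The first (ENSAMXG00000030612) had 116 to 151 reads in SEF and 65 to 96 in PEF, which gave −0.70 on the log2 scale (edgeR adjusted p = 0.0274). The second (ENSAMXG00000042226) had a log2 fold change of 0.36 and did not pass the test (edgeR adjusted p = 0.0950), and the third had 0 reads in every library. The call of the first was lost without SEF replicate 1 (0.0785), SEF replicate 3 (0.0612), PEF replicate 1 (0.0642) or PEF replicate 2 (0.0723), each an edgeR adjusted p. That of *poll*, at −0.42, was lost without SEF replicate 1 (0.0752), SEF replicate 2 (0.0716), PEF replicate 1 (0.0642) or PEF replicate 2 (0.0570). Without SEF replicate 1, PEF replicate 1 or PEF replicate 2 only *poli* of this list was called.

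Of the genes that act with RAD18 on PCNA, *hltf* had reads in SEF alone. HLTF and SHPRH are the ligases that, in mammals, extend the single ubiquitin on PCNA into a chain. *hltf* (ENSAMXG00000006359) had 451, 435 and 424 reads in SEF replicates 1, 2 and 3 and 0 reads in each PEF library, where a count of 0 allows up to 3 reads. The genome build is not given in the sources used here, so 0 means that no read was assigned to this gene, and the part that differences between Pachón sequence and the reference could have in it was not tested. Against the floor of 3 reads in each PEF library it was at least 145-fold lower in PEF (edgeR adjusted p = 1.7e-05). Of the 11933 genes tested whose SEF mean reached 100 reads, 376 (3.15%) likewise had no more than 3 reads in any PEF library. In the other direction, 79 (0.692%) of the 11413 genes whose PEF mean reached 100 reads had no more than 3 in any SEF library. *shprh* had 3.12, 2.73 and 1.79 TPM in SEF and 4.14, 2.81 and 3.08 TPM in PEF, and its log2 fold change of 0.49 did not pass the test (edgeR adjusted p = 0.0852), except without SEF replicate 1 (0.66, adjusted p = 0.0473). Over the list of PCNA ubiquitin partners, 2 of 13 genes were higher and 4 lower in PEF. The share called, 46.2%, lay below the 63.5% of all genes tested. *usp7*, a deubiquitinase, was higher at a log2 fold change of 0.53, and *usp10*, another deubiquitinase, was lower at −0.75. *usp1*, whose product removes ubiquitin from PCNA, was lower at −0.69, a call lost without SEF replicate 1 (edgeR adjusted p = 0.0710) or PEF replicate 2 (0.0654). *rfwd3*, a ubiquitin ligase, was lower at −0.97, and its call was lost without SEF replicate 1 (0.0861), SEF replicate 2 (0.0690) or PEF replicate 2 (0.0509). The remaining call was that of *smarcal1*, a fork-remodeling enzyme, at 0.67, which limma on TPM did not make.

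Of 10 replicative polymerase and primase genes, 6 were lower and 0 higher in PEF, with a median log2 fold change of −0.82. The share called, 60%, was close to the 63.5% of all genes tested, of which 33.1% were lower and 30.4% higher. The 4 largest were *prim2* at −1.95, *pole2* at −1.04, *pole3* at −1.02 and *pold3*, whose product is also a subunit of polymerase zeta in mammals and yeast, at −0.96. Without SEF replicate 1 or 2, the call of *pold1*, at −0.89, was lost (edgeR adjusted p = 0.104 and 0.0903). It was also lost without PEF replicate 1 (0.0508) or PEF replicate 2 (0.106). With a library left out, 5 to 8 genes of this list were called. *pold2* was not called, at −0.19 (edgeR adjusted p = 0.388). The summed level of the list was 124.6 to 163.0 TPM in SEF and 56.0 to 106.9 TPM in PEF. Of 12 genes of the sliding clamp, its loaders and the single-strand binding protein RPA, 4 were lower and 0 higher. The share called, 33.3%, lay below the 63.5% of all genes tested, and the share lower was close to their 33.1%. Among the 4 were *dscc1* at −1.35, *rpa2* at −1.24 and *rfc4* at −1.01. *pcna* itself had 188.4, 175.6 and 144.0 TPM in SEF and 63.9, 85.8 and 137.6 TPM in PEF, with a log2 fold change of −0.68 that missed the threshold (edgeR adjusted p = 0.0737). Without PEF replicate 3 it was −1.03 and passed it (adjusted p = 0.00644), and 8 genes of the clamp list were then called. The fourth call, *rfc1* at −0.56, was lost without SEF replicate 1 (edgeR adjusted p = 0.0969), SEF replicate 2 (0.0815), PEF replicate 1 (0.0559) or PEF replicate 2 (0.0976).

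Around *rnf8*, 3 of 15 tested genes of break signaling were higher in PEF and 2 were lower. This share of 33.3% lay below the 63.5% called among all genes tested. *herc2*, which encodes a partner of RNF8 in mammals, had 7.39, 7.52 and 7.10 TPM in SEF and 22.5, 17.6 and 15.9 TPM in PEF. *tp53bp1*, whose product binds chromatin marked by this pathway, had a log2 fold change of 1.30 (SE 0.12, edgeR adjusted p = 8.4e-05), and *herc2* one of 1.43 (SE 0.12, edgeR adjusted p = 6.6e-05). *ube2na*, a gene of the enzyme UBC13 with which RNF8 builds chains, was higher by 0.75 on the log2 scale. *babam2*, a subunit gene of the BRCA1-A complex that reads these chains, was lower at −1.34, with 28.6 to 46.6 TPM in SEF and 13.0 to 15.9 TPM in PEF. The call of *paxip1*, at −0.63 (edgeR adjusted p = 0.0469), was lost in each of the fits without a library, except without SEF replicate 3. The ligase that follows RNF8, *rnf168*, was not called, nor was the histone gene *h2ax*.

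The other partners of RAD6 were compared in the same way. Of 14 tested genes tied to histone H2B ubiquitin, 6 were higher and 0 lower in PEF, with a median log2 fold change of 0.27. Among all genes tested, 30.4% were higher and 33.1% lower. The 6 were *leo1* at 0.73, *rnf40* at 0.54, *ctr9* at 0.42, *paf1* at 0.36, *rtf1* at 0.30 and 1 of the 2 genes listed as *usp16*. That *usp16* gene (ENSAMXG00000001936) had only 2 to 3 reads in SEF and 17 to 26 in PEF. It had enough reads to be tested through PEF alone. The other *usp16* gene (ENSAMXG00000003127), with 212 to 299 reads, was not called, at −0.24 (edgeR adjusted p = 0.180). RNF40 is a subunit of the ligase that works with RAD6 on histone H2B, and LEO1, CTR9, PAF1 and RTF1 belong to the elongation complex that recruits it. Without SEF replicate 2, 3 of the 6 called genes were still called, *ctr9* (edgeR adjusted p = 0.0528), *paf1* (0.0890) and *rtf1* (0.102) falling out. Without SEF replicate 3, 5 genes of the list were higher and 1 lower, and without PEF replicate 1, 8 were higher and 0 lower. *rtf1* was also lost without SEF replicate 3 (0.0748), PEF replicate 2 (0.0834) or PEF replicate 3 (0.0721). Among the N-degron genes, whose products mark proteins for turnover by their first residues, *ubr1*, a ligase that uses RAD6, was lower at −0.42. The last list held 36 tested genes of ubiquitin-activating enzymes and of the ubiquitin-conjugating enzyme family, not all members of which carry ubiquitin. Of these genes, 4 were higher and 5 lower in PEF, a share of 25%. The called genes included *ube2d1a* at −1.19, *ube2ia*, whose product carries the related modifier SUMO, at −0.68, *cdc34b* at 0.81 and *ube2j2* at 0.70. Each of these differences was larger than that of *ube2b*. Over all these lists, 41 of 116 genes tested were called (35.3%), below the 63.5% of all genes.

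**Figure D4:**
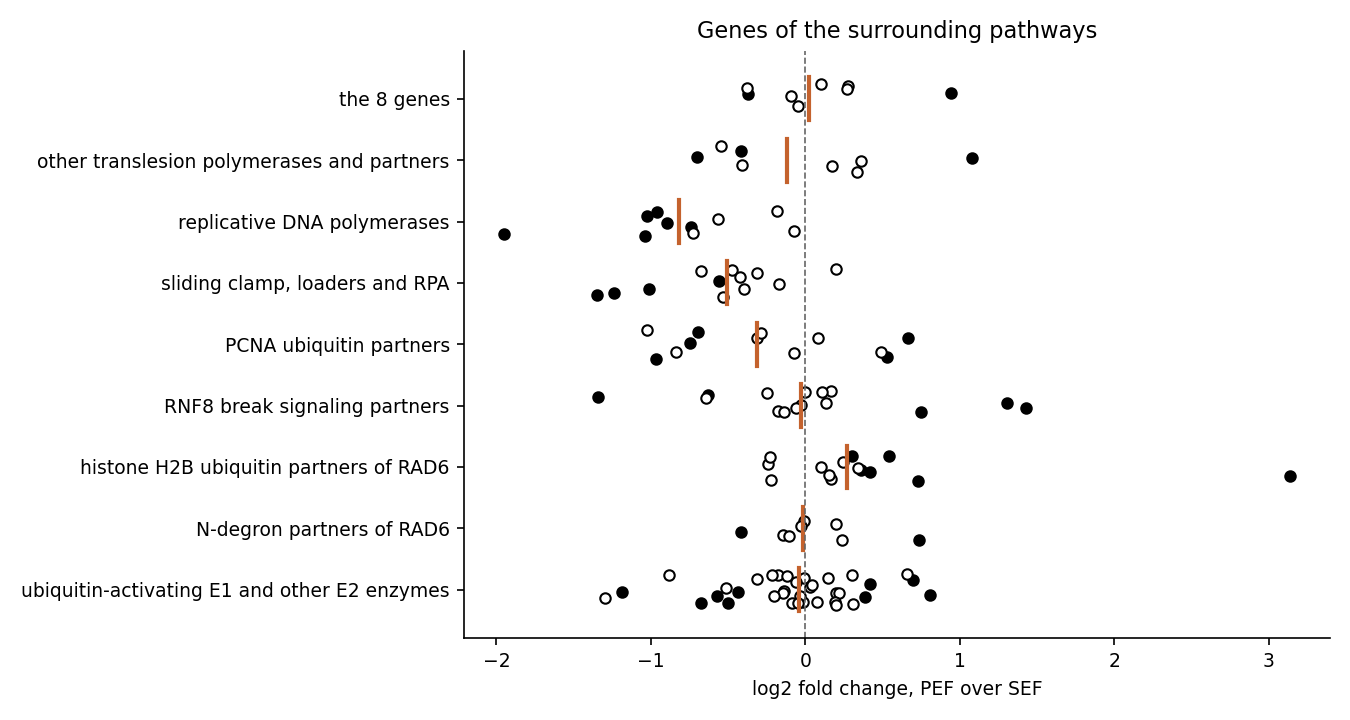
Log2 fold changes, PEF over SEF, of the 8 genes and of the tested genes of 8 surrounding lists, with filled points at an adjusted p under 0.05 and an orange bar at each list's median. *hltf*, at 0 reads in every PEF library, is not drawn but enters its list's median, and the replicative polymerase genes lie below 0 while those tied to histone H2B ubiquitin have their median above it.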

How the data were processed

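The authors deposited whole-number read counts per gene, not normalized, and TPM values, scaled to the same total per library and rounded to 2 decimals. The submitters' processing notes name STAR 2.7.3a and RSEM without saying which step each ran. By their deposited names, the counts came from STAR and the TPM values from RSEM. Libraries were made with a stranded mRNA kit. The genome build, the annotation and the strand setting of the counting are not given in the sources used here for these libraries, so overlapping genes are uncertain and no positions are given. The 4 count rows for reads assigned to no gene were left out and held 38.8% to 41.1% of the reads in each library. SEF and PEF were compared with edgeR 4.0.16 in R 4.3.3 (TMM, filterByExpr, quasi-likelihood test, Benjamini-Hochberg adjustment over all genes). Standard errors were derived from the F statistic, and intervals cover 95%. The floor of 3 reads and its bound cover counting error only. Alternatives used DESeq2 1.42.0, limma 3.58.1 on log2 TPM, other normalization and filters, a replicate block and each library left out. The test was checked on simulated counts in which far fewer genes changed than were called here, so the check does not cover so wide a difference. The 8 genes, the lists and the tests were chosen with earlier results of these data known. Named were all 8 genes, the 4 largest calls of each list and the most alike gene by r, and other genes after their values were seen. A gene of the surrounding lists is not reported here. RefSeq symbols of the assembly AstMex3_surface gave neighboring genes only.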

Additional observations from a re-analysis of the deposited data

How the results depend on the processing

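The calls of *rev3l* and *ube2b* held in 14 of 14 alternatives each, with log2 fold changes from 0.73 to 1.04 and from −0.49 to −0.33. On TMM-scaled CPM in place of TPM, the log2 ratio of the mean levels of *ube2b* was −0.37 in place of −0.49, and the cause was not tested. The number of the 8 genes called was 2 to 4 with a library left out, and 2 in every other alternative. Left-out libraries gave −0.21 to 0.038 for *polh*, −0.25 to 0.21 for *rad18*, −0.56 to −0.26 for *rnf8*, 0.19 to 0.38 for *ube2al* and −0.17 to 0.12 for the reference gene *rpl13a*, which was −0.08 in all libraries. For *rad18*, limma on log2(TPM + 1) gave 0.072 with and without a filter, and 0.088 with a pseudocount of 0.1. Over all genes, the alternatives called 7700 to 11853 in place of 10579, among different numbers of genes tested. The main fit tested 16670. With at least 10 reads in every library, 7700 of 13388 were called, and with DESeq2 11853 of 23766. The share of 63.5% used above therefore belongs to the filter of the main fit. The clamp list had 7 calls with DESeq2 and 3 to 8 with a library left out, against 4. The histone H2B list had 6 calls, 4 among genes with at least 10 reads in every library, and 2 to 3 in limma on TPM. Deviations of the SEF and PEF libraries from their line means correlated at −0.04, 0.07 and −0.13 for replicate numbers 1, 2 and 3. With 3 libraries per line, these values cannot tell whether the replicate numbers pair the libraries. With the replicate block, 9735 genes, the same 2 of the 8 genes, 34 genes of the surrounding lists and 1 of the translesion list (3 without it) were called. The called genes of the surrounding lists, *pcna*, *shprh* and *rpl13a* had 612 values under alternatives. Of these values, 537 kept direction and side of the threshold, 67 lost their call, 7 gained one and 1 changed sign. *rad18*, with 81 to 180 reads, and *polh*, with 200 to 263, had the fewest reads of the 8 genes, and the part of depth in their errors was not tested.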

Other observations

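Genes next to the called members moved in both directions. The following counts were chosen after the values were seen, use gene order in AstMex3_surface, which may not be the build of the files, and were not tested. Of the 10 nearest tested named genes around *rev3l*, 2 were higher and 3 lower in PEF, with a median log2 fold change of −0.26. The nearest on either side were *fynb* at −4.34 and *mfsd4b* at −0.86, both lower in PEF. Of 9 such genes around *ube2b*, 1 was higher and 1 lower, with a median of 0.02. Around *rnf8*, which was not called and stood at −0.37, 1 of 10 was higher and 5 were lower, with a median of −0.35. Around *ube2a*, which was not called either and stood at 0.28, 1 of 10 was higher and 5 were lower, with a median of −0.62. Among all genes tested, 30.4% were called higher and 33.1% lower in PEF, so calls in both directions are common in the whole table.

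The absence of *hltf* reads in PEF was not shared by its neighbors in the same gene order. The gene on 1 side, *gyg1a*, was lower in PEF at a log2 fold change of −0.86 and had up to 1091 reads in a PEF library. The gene on the other side, *pccb*, was higher. Of the 10 tested named genes nearest to *hltf*, 3 were higher and 6 lower in PEF, beside 30.4% and 33.1% of all genes tested. Each of the 10 had at least 29 reads in its highest PEF library.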
